A study of Mus musculus with 6 samples.

Results

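The genes described here are 32 genes of autophagy and the lysosome, measured in primary mouse keratinocytes that had lost Gpx4. They were chosen by name for their role, with earlier results of these data known. All 32 had a probe set with a single annotated gene symbol, out of 18193 genes with such a probe set on the array. Where a gene had several probe sets, that of highest mean intensity over the 6 arrays stood for it. Together the 32 genes had 81 probe sets, and each chosen probe set was brighter than at least 65.7% of the 45037 tested, so all 32 remained when the 40% dimmest were left out.

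Keratinocytes, the epithelial cells of the epidermis, were cultured from newborn mice on a mixed C57BL6/FVB background, in media with 100 nM sodium selenite, the selenium source for Gpx4 and other selenoproteins. The knockout group carried a keratin 14-driven cre that deleted Gpx4, whose product detoxifies lipid peroxides. The promoter acts in basal keratinocytes, and their progeny inherit the deletion. Whether other cell types in the pools kept the gene was not measured. The controls were littermates, named only as control in the labels, with their alleles not described. Each array held RNA of cells pooled from animals of 1 genotype and 1 litter, and litters A, B and C gave 3 control and 3 knockout arrays, compared within litters.

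In autophagy a double membrane grows around part of the cytoplasm, closes into an autophagosome and fuses with the lysosome, where hydrolases break the content down. Small ubiquitin-like proteins of the ATG8 family, LC3 and GABARAP, are attached to lipids of this membrane and bind cargo receptors such as p62. In the epidermis lysosomal proteases also take part in the final differentiation of keratinocytes, in which organelles are removed and structural proteins are processed, and cystatins hold these proteases in check.

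Many lysosomal and autophagy genes are known to carry the E-box CACGTG near their start, the core of the element bound by the transcription factor TFEB. Promoter sequences of RefSeq (build GRCm38.p6) were matched by symbol to 25 of the 32 members in 29 windows, and the 250 bases before each start were searched on both strands. CACGTG stood in 10 of these 29 windows (34.5%), against 6.02% of the 32851 windows of all genes, and the longer TCACGTGA, which contains it, in 4 (13.8% against 0.785%). The full 10-base CLEAR palindrome was in none of the 29 windows and in 0.24% of all. TGACNNNGC, the core of the antioxidant response element, was in 10.3% of the members' windows and 10.2% of all, and the AP-1 motif TGANTCA in 3.45% and 6.75%. A match is a description of letters, not of binding, and no match says only that these letters are not in this window. The 10 genes with CACGTG were Ctsa, Ctsd, Ctsl, Lamp1, Mcoln1, Glb1, Gaa, Atg3, Atg5 and Atg7. None of the 5 motifs was in the windows of the ATG8 genes Map1lc3b, Gabarap, Gabarapl1 and Gabarapl2, or of Sqstm1, Wipi1, Wipi2 and Lamp2. Map1lc3a, Becn1, Atg12, Atg16l1, Npc1, Ctsb and Ctsh were not matched. The sequences below show windows with and without these letters, with TCACGTGA in capitals in Ctsd (chr7:142387899-142387946, minus strand), Mcoln1 (chr8:3500453-3500500, plus strand) and Atg3 (chr16:45158737-45158784, plus strand), and the 4 copies of CACGTG in capitals in Lamp1 (chr8:13159080-13159160, plus strand).
Ctsd: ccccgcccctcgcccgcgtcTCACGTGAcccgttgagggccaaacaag
Mcoln1: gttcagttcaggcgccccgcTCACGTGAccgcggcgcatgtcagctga
Atg3: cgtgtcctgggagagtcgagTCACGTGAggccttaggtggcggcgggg
Lamp1: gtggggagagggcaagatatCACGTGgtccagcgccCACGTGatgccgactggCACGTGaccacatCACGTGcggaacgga
The whole 250-base windows of Map1lc3b (chr8:121590188-121590437, plus strand) and Gabarap (chr11:69991120-69991369, plus strand) have no capitals because they hold none of these motifs. Knockout values lay below all controls in Map1lc3b and Gabarap, which have no motif here, and in Atg3, Atg5 and Ctsa, which have CACGTG. The other genes named above with CACGTG or with no motif had overlapping groups. The share with all knockout values below all controls was 10.8% over all genes and 14.8% among those at least as bright as the dimmest member. Whether a motif goes with a change was not tested.
Map1lc3b: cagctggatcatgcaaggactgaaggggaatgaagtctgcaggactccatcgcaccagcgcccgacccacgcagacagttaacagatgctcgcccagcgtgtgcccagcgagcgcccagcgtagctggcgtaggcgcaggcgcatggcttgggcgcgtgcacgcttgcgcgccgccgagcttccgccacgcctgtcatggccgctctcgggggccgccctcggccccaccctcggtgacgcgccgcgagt
Gabarap: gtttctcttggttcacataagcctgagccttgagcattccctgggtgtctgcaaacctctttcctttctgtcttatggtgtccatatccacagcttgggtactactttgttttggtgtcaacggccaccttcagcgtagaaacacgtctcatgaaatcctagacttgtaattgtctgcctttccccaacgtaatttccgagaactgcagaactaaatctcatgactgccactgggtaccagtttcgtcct

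The 6 arrays had medians between 15.9 and 20.4 intensity units, and the values below are quantile-normalized between arrays. Gpx4 itself was 497, 551 and 536 in control pools A, B and C, and 212, 260 and 216 in their knockout pools (log2 change -1.15 ± 0.091, limma adjusted p = 0.0206). Its call ended on the deposited scale (0.122), with the mean of its probe sets (0.0635) and without the intensity trend (0.1). The Gpx4 call also ended without litter A (0.153) or litter B (0.278), so these settings can lose even the deleted gene. It held with arrays aligned at their medians (0.00341), with a pseudocount of 64 (0.0365) and without litter C (0.0016). The keratinocyte markers Krt5 and Krt14 were between 6278 and 7049 on every array, and the summed level of 9 keratinocyte markers was 26758 to 28664 in controls and 25901 to 26433 in knockouts. Members of this list differed among themselves. Krt10, a keratin of the suprabasal, differentiating layers, was 590.4, 737 and 760.4 in controls and 215, 252 and 284 in knockouts, with no overlap, and fell 2.67-fold (log2 change -1.42 ± 0.084, limma adjusted p = 0.00922; 0.0622 on the deposited scale, 0.0618 without the intensity trend, 0.0969 without litter A and 0.179 without litter B). Its partner Krt1 had a log2 change of -1.21 ± 0.22, below 0 in each litter (limma adjusted p = 0.0836), and Trp63, a transcription factor of stratified epithelia, had -0.43 ± 0.076 with no overlap between groups (limma adjusted p = 0.0816). The summed level of 8 melanocyte markers, cells whose pigment organelles are related to lysosomes, was 4340 to 4537 in controls and 6166 to 6752 in knockouts, and all 8 were higher in every knockout array. The summed level of 9 fibroblast markers was 442, 416 and 1228 in control pools A, B and C, and 1392, 1368 and 1689 in knockout pools. Vim made up most of the knockout sums, with 225, 196 and 616 in controls and 947, 836 and 1038 in knockouts. Of these 9 markers 4 were higher in each litter and 5 had no common sign. Among the latter Dcn (log2 change -0.06 ± 0.20) and Lum (-0.29 ± 0.19) were below 0. That of 11 macrophage and Langerhans cell markers was 135 to 196 in controls and 166 to 232 in knockouts, with 5 to 7 of the 11 under 16 on each array. The macrophage and Langerhans cell markers Ptprc, H2-Aa, Cd207, Mrc1 and Itgam and the fibroblast marker Lum were under 16 on every array. Eif2s3y, on the Y chromosome, was 155 to 185 in controls and 0.667 to 4.62 in knockouts, and Xist 389 to 536 and 1214 to 1260, so the sex makeup of the pools and the genotype cannot be told apart. The part of these differences in the results below was not tested. In pooled cells, fewer cells of a type and less RNA per cell cannot be told apart.

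The log2(intensity + 16) values were compared in limma with the litter as blocking term. At a Benjamini-Hochberg adjusted p under 0.05, 0.158% of all 45037 probe sets were higher in the knockout and 0.262% lower, 0.420% in all. Of the 32 members Map1lc3a passed as lower and none passed as higher. With 1 probe set per gene the shares were 0.214% higher and 0.401% lower, and among the 8398 genes at least as bright as the dimmest member, a comparison added after the data were seen, 0.464% and 0.798%. At an unadjusted p under 0.05 there were 8 lower and 1 higher of the 32, against 9.45% and 8.66% of all genes and 14.5% and 13.4% of the brighter ones. In 12 members the knockout was lower in each litter and in 2, Wipi1 and Glb1, higher, against 20.1% and 19.3% of all genes and 25.7% and 23.6% of the brighter ones. The median log2 change of the members was -0.12, against 0.00039 over all 18193 genes. It was -0.04, -0.14 and -0.22 in litters A, B and C, and -0.05 when litter C was left out (-0.18 without litter A and -0.17 without litter B). In 9 members all 3 knockout arrays lay below all 3 controls: Map1lc3a, Map1lc3b, Gabarap, Atg3, Atg5, Npc1, Ctsa, Ctsb and Ctsh. The share of such genes was 10.8% over all genes and 14.8% among the brighter ones. In no member did all knockout arrays lie above all controls, where the shares were 9.81% and 13.4%. No member had an absolute log2 change of 1 or more. With intensities scaled as deposited the median of the members was -0.31 and that of the 8398 brighter genes -0.19, and higher calls made up 8.57% of all calls there, against 37.6% after quantile normalization; with arrays aligned at their medians they made up 27.9%.

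**Figure D1:**
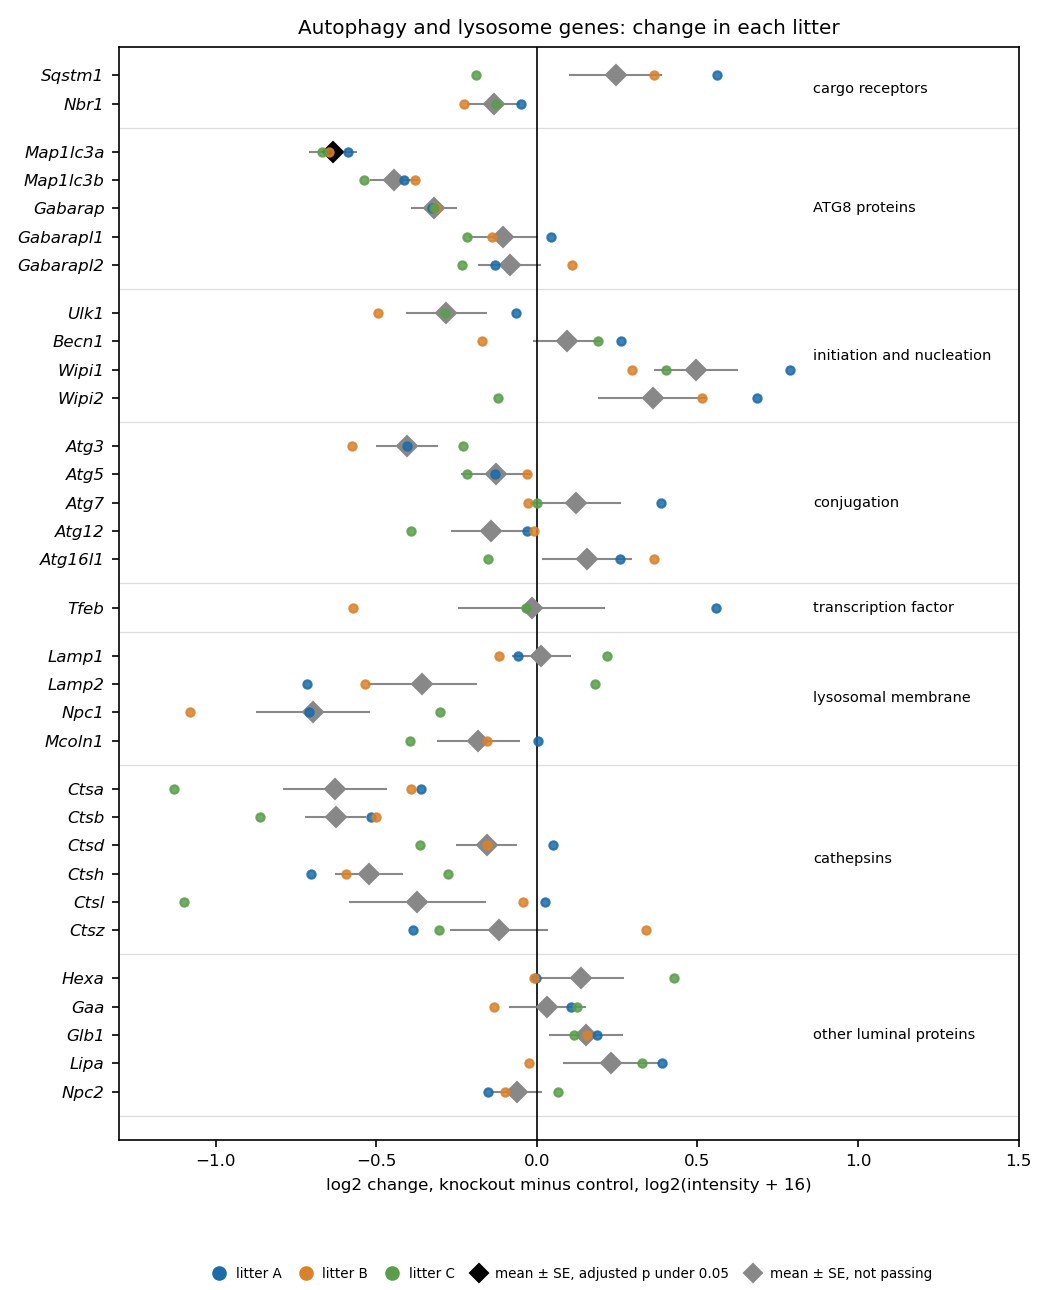
Log2 change (knockout minus control, on log2(intensity + 16)) of each of the 32 members, grouped by role, with 1 coloured point per litter and a diamond with a bar for the limma mean ± SE. Map1lc3a, in black, passed an adjusted p of 0.05, and the litter C points of Ctsa (-1.13) and Ctsl (-1.10) lie far to the left of their litter A and B points.

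The ATG8 genes had the 1 member that passed. Map1lc3a, which encodes LC3A, a protein of the autophagosome membrane, was 1103, 1220 and 1121 in the controls, in the order of litters A, B and C used throughout, and 729, 773 and 699.9 in the knockouts. The groups did not overlap, and the 3 litters were alike, with log2 changes of -0.59, -0.65 and -0.67. Map1lc3a fell from 1148 ± 62.9 to 734 ± 36.8 (SD, n = 3), a log2 change of -0.63 ± 0.075 or 1.55-fold (limma adjusted p = 0.0394). Its other probe set also passed, with 341, 347 and 301 in controls and 207, 179 and 182 in knockouts (log2 change -0.75 ± 0.099, limma adjusted p = 0.048). The call ended with intensities on their deposited scale (log2 change -0.81, limma adjusted p = 0.325), with arrays aligned at their medians (0.0795), with a pseudocount of 64 (0.0557), with the mean of its probe sets (0.0561) and without the intensity trend (0.125). It also ended without litter A (-0.66, 0.248) or litter B (-0.63, 0.447), and not without litter C (-0.62, 0.00662).

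Map1lc3b, which encodes LC3B, the form most used as a marker of autophagosomes, was 1843, 1748 and 2005 in the controls and 1380, 1340 and 1376 in the knockouts. Each knockout array was below each control, and the log2 change of -0.44 ± 0.075 did not pass over all probe sets (limma adjusted p = 0.0771). The same separation held in 3 of its 4 probe sets, with log2 changes from -0.51 to -0.43, and the remaining dim one was at -0.02. Gabarap, whose protein acts later in autophagosome closure and fusion, was 1219, 1346 and 1505 in controls and 969, 1080.0 and 1203 in knockouts. Its litters gave nearly the same difference, -0.33, -0.31 and -0.32, and the log2 change of -0.32 ± 0.0715 did not pass (limma adjusted p = 0.126). Gabarapl1 (log2 change -0.10 ± 0.11) and Gabarapl2 (-0.08 ± 0.099) had overlapping groups and a sign that differed between litters. All 5 ATG8 genes had a log2 change below 0 (median -0.32).

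**Figure D2:**
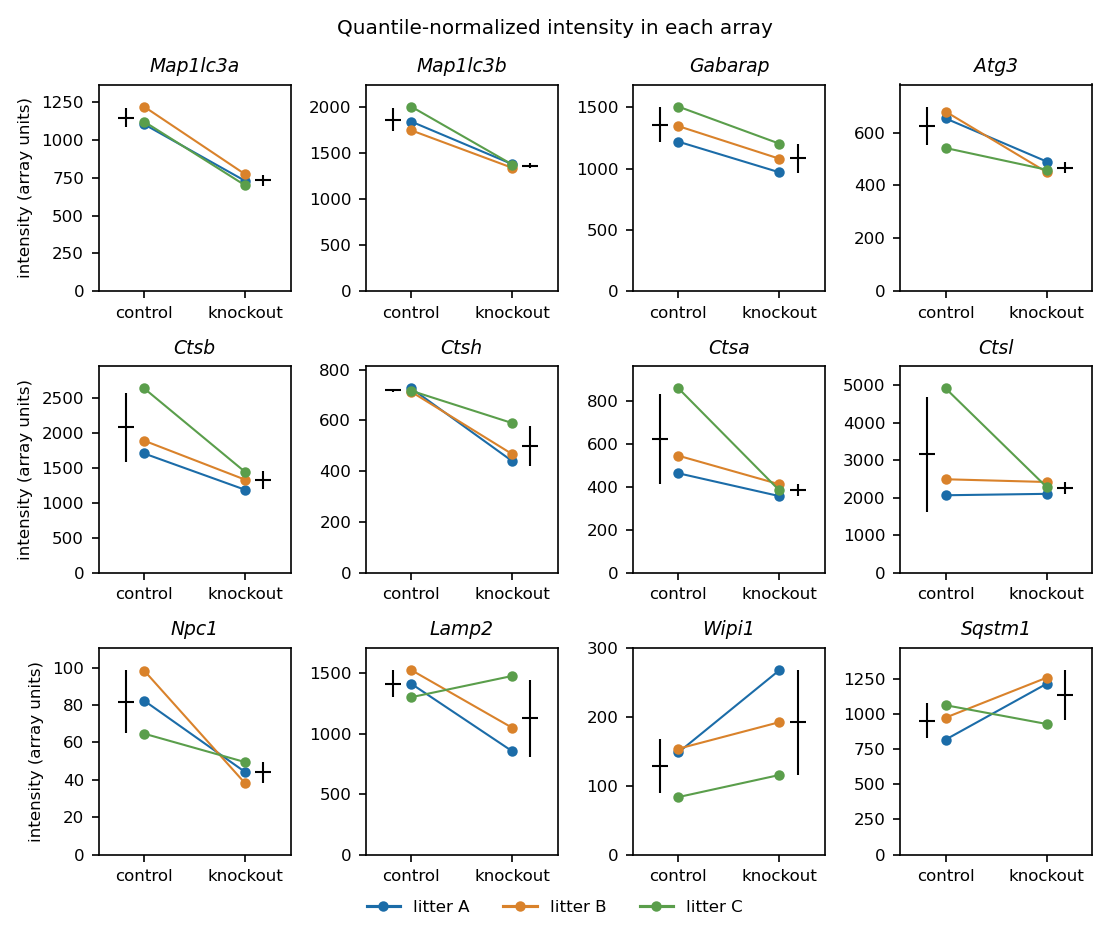
Quantile-normalized intensity (array units, linear axis from 0) of 12 members in control and knockout arrays, with a line per litter and the mean ± SD of each group beside the points. In Map1lc3a the 3 lines run nearly parallel from 1103 to 1220 down to 699.9 to 773, whereas Ctsl differs in litter C alone, where the control is 4920 and the knockout 2290.

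The 2 cargo receptors had log2 changes of opposite sign, and neither passed. Sqstm1, which encodes p62, a receptor for ubiquitinated cargo and a target of the NRF2 oxidative stress response, was 817, 974 and 1062 in the controls and 1214, 1258 and 929 in the knockouts. Litters A and B were higher in the knockout (0.56 and 0.36) and litter C was lower (-0.19), so the groups overlapped (log2 change 0.25 ± 0.15, limma adjusted p = 0.5). Without litter C Sqstm1 passed as higher (0.46, limma adjusted p = 0.0242). Nbr1, a receptor with a similar domain layout, was 710.0, 687 and 606 in controls and 686, 585 and 554 in knockouts (-0.13 ± 0.082, limma adjusted p = 0.516).

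Of the genes that start the autophagosome, Wipi1 had the highest log2 change of the 32 members. WIPI proteins bind the phosphoinositide made where the membrane forms. Wipi1 was 148, 154 and 83.5 in the controls and 268, 192 and 116 in the knockouts. Every knockout was above the control of its own litter, by 0.79, 0.30 and 0.40, but the levels of the litters differed and the groups overlapped (log2 change 0.50 ± 0.13, limma adjusted p = 0.167). Of its 5 other probe sets 1 had no overlap between groups (36.1, 41.1 and 25.9 against 64.7, 71.4 and 45.7, log2 change 0.60 ± 0.14, limma adjusted p = 0.133), and another of similar brightness was at -0.05 ± 0.15, so its probe sets disagreed. Wipi2 was 119, 123 and 199 in controls and 200.4, 182 and 182 in knockouts. Its 3 knockout arrays were close together, and the control of litter C was as high as they were (0.36 ± 0.17, limma adjusted p = 0.392). Without litter C Wipi2 passed as higher (0.60, limma adjusted p = 0.0264). A dim Wipi2 probe set was higher in each litter with no overlap, at 26.6, 25.5 and 28.55 against 38.25, 39.3 and 36.3. Its log2 change of 0.33 ± 0.15 did not pass (limma adjusted p = 0.384). The remaining Wipi2 probe set was at 0.12 ± 0.12, with a sign that differed between litters. Ulk1, the kinase that initiates autophagy, had a log2 change of -0.28 ± 0.13 (limma adjusted p = 0.37), with a knockout below its control in each litter. Becn1, a subunit of the lipid kinase complex that nucleates the membrane, had 0.10 ± 0.11 (limma adjusted p = 0.741), and -0.08 with intensities as deposited.

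Among the conjugation genes, Atg3, the E2-like enzyme that transfers ATG8 proteins to lipid, was 654, 680 and 542 in the controls and 491, 451 and 460 in the knockouts. The groups did not overlap, and the log2 change of -0.40 ± 0.097 did not pass (limma adjusted p = 0.145). It passed without litter C (-0.49, limma adjusted p = 0.0224). The other, dim Atg3 probe set was at 0.08 ± 0.19, and the mean of its probe sets gave -0.16 (limma adjusted p = 0.516). Atg5, which is joined to Atg12 to form part of the E3-like complex, was 139, 130 and 129 in controls and 125, 127 and 109 in knockouts, a log2 change of -0.13 ± 0.11 (limma adjusted p = 0.655). Another Atg5 probe set gave a larger difference, 117, 109.5 and 110.5 against 73.2, 69.4 and 76.4 (-0.53 ± 0.12, limma adjusted p = 0.122). Atg12 (-0.14 ± 0.12), the E1-like Atg7 (0.12 ± 0.14) and Atg16l1 (0.16 ± 0.14), which places the complex on the membrane, had overlapping groups and did not pass. Atg7 and Atg16l1 were below 0 with intensities as deposited (-0.08 and -0.04).

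Tfeb, the transcription factor that raises lysosomal and autophagy genes when it moves to the nucleus, was 44.4, 58.5 and 33.5 in the controls and 73.0, 34.1 and 32.4 in the knockouts. The litters had opposite signs, 0.56 in A and -0.57 in B, and the mean difference was -0.02 ± 0.23 (limma adjusted p = 0.987). TFEB is controlled mainly by phosphorylation and location, which messenger RNA does not show.

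The cathepsins, lysosomal proteases, had log2 changes below 0 in all 6 members (median -0.45, and -0.21 without litter C), and none passed with all 3 litters (3 at an unadjusted p under 0.05). Ctsb, a cysteine protease, was 1706, 1889 and 2637 in the controls and 1187, 1332 and 1442 in the knockouts. No knockout reached a control (log2 change -0.63 ± 0.096, 1.54-fold, limma adjusted p = 0.0645), and 4 of its 5 probe sets showed the same separation, with log2 changes from -0.85 to -0.61. Ctsb passed with a pseudocount of 1 (limma adjusted p = 0.0372), without the 40% dimmest probe sets (0.0159) and without litter C (-0.51, 0.011). Ctsh, a cysteine protease that acts mainly as an aminopeptidase, was 726, 713 and 717 in the controls, almost the same in the 3 litters, and 439.8, 467 and 589.5 in the knockouts. The difference of -0.52 ± 0.11 did not pass (limma adjusted p = 0.105), its other probe set gave -0.46 ± 0.10, and it passed without the 40% dimmest probe sets (0.0433) and without litter C (-0.65, 0.00732).

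In 5 of the 6 cathepsins, all but Ctsh, the control of litter C was the highest of the controls. Ctsl, a cysteine protease needed for normal epidermis and hair in mice, was 2069, 2495 and 4920 in the controls and 2106, 2422 and 2290 in the knockouts. The knockouts of litters A and B were close to their controls, with differences of 0.03 and -0.04, and the mean log2 change of -0.37 ± 0.21 (limma adjusted p = 0.486) was -0.01 without litter C. Ctsa, a serine carboxypeptidase that also protects other lysosomal enzymes, was 464, 546 and 859.8 in controls and 357, 413 and 384 in knockouts. It was lower in all 3 litters, with log2 changes of -0.36, -0.39 and -1.13 (mean -0.63 ± 0.16, limma adjusted p = 0.161), and passed without litter C with a smaller change (-0.38, limma adjusted p = 0.0457). The other, dim Ctsa probe set was at 0.21 ± 0.26, and the mean of its probe sets gave -0.21 (limma adjusted p = 0.678). Ctsz was 393, 373 and 670.3 in controls and 297, 477 and 539 in knockouts, with no common sign (-0.12 ± 0.15, limma adjusted p = 0.784; 0.02 without litter A). Ctsd, the aspartic protease of the lysosome, was 1856, 2033 and 2164 in controls and 1923, 1824 and 1676 in knockouts (-0.16 ± 0.096, limma adjusted p = 0.515). The control of litter C was also the control with the highest fibroblast marker sum, and the array with the highest trimmed mean before normalization (114); whether this bears on its cathepsin levels was not tested. Nor was the part of the lower suprabasal keratins, given above, in the cathepsin values of the knockouts.

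Several members had more than 1 probe set, and these measure the same RNA pools. Of the 49 probe sets of members that were not chosen, 35 had the sign of their gene's chosen one. Over all 81 probe sets 23 had every knockout array below every control and 2 had every knockout array above, against 9.43% and 8.79% of all 45037 probe sets; probe sets of 1 gene are not independent. The 2 that passed were both of Map1lc3a.

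**Figure D3:**
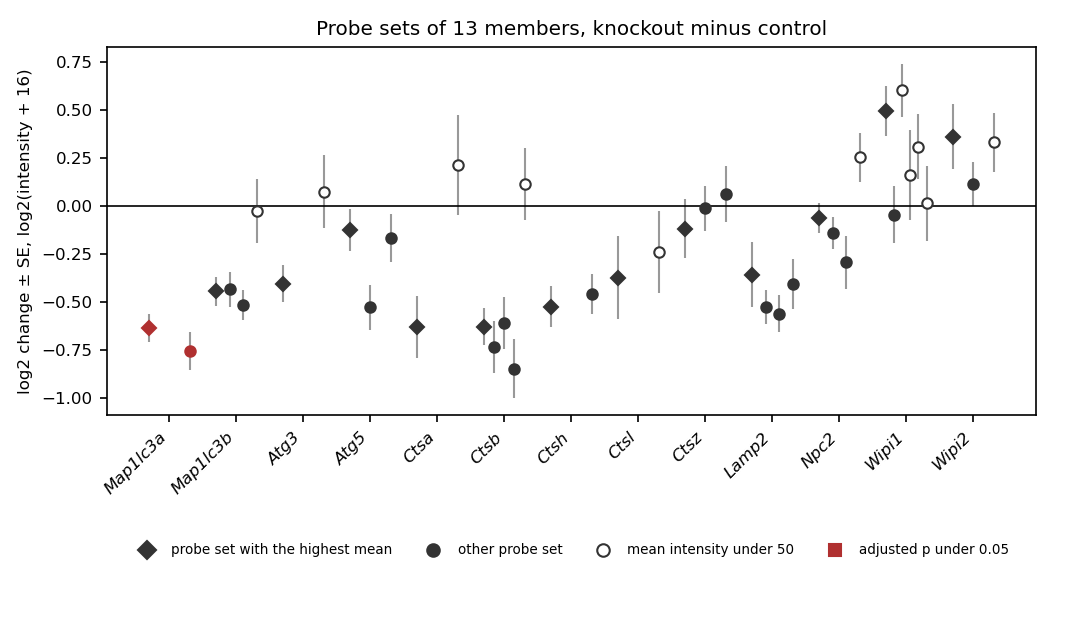
Log2 change ± SE (knockout minus control) of all probe sets of 13 members, with diamonds for the probe set with the highest mean, open circles for probe sets with a mean intensity under 50 and red for an adjusted p under 0.05. Both Map1lc3a probe sets, 3 of Map1lc3b, 4 of Ctsb and all 4 of Lamp2 lie below 0 by more than their SE. Atg3, Ctsa, Ctsb, Ctsz, Npc2 and Wipi1 each have probe sets of both signs.

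Of the 4 lysosomal membrane genes none passed with all 3 litters (1 lower at an unadjusted p under 0.05 by limma, Npc1). Lamp2, which encodes an abundant membrane glycoprotein with a splice form that acts as the receptor of chaperone-mediated autophagy, was 1413, 1527 and 1302 in the controls and 855, 1049 and 1478 in the knockouts. Its difference of -0.36 ± 0.17 did not pass (limma adjusted p = 0.397), and litter C, at 0.18, was opposite in sign to litters A and B at -0.71 and -0.53. The other 3 probe sets of Lamp2 were lower in the knockout of every litter with no overlap between groups. On one of them the controls were 1235, 1367 and 1491 and the knockouts 749, 984 and 1130, a log2 change of -0.52 ± 0.089 (limma adjusted p = 0.0775), and the others gave -0.56 ± 0.096 (0.0777) and -0.40 ± 0.13 (0.236). Without litter C the chosen Lamp2 probe set passed (-0.62, limma adjusted p = 0.0082). Lamp2 lies on the X chromosome, and the pools differed in Xist and in Y chromosome transcripts as given above. Its relative Lamp1 was 1478, 1370 and 1446 in controls and 1418, 1262 and 1686 in knockouts (0.01 ± 0.091, limma adjusted p = 0.964; -0.15 as deposited).

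Npc1, the membrane protein that exports cholesterol from the lysosome, had the lowest log2 change of the 32 members. It was 82.3, 98.4 and 64.6 in the controls and 44.1, 38.1 and 49.4 in the knockouts. The groups did not overlap, and the litters spread from -1.08 in B to -0.30 in C, so the log2 change of -0.70 ± 0.18 did not pass (1.62-fold, limma adjusted p = 0.16). It passed without litter C (-0.89, limma adjusted p = 0.0252). Npc2, the soluble protein that hands cholesterol to Npc1, was 1426, 1704 and 1494 in controls and 1281, 1589 and 1564 in knockouts (-0.06 ± 0.079, limma adjusted p = 0.779). Mcoln1, a calcium channel of the lysosomal membrane, had -0.18 ± 0.13 (limma adjusted p = 0.578).

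The luminal hydrolases outside the cathepsins had small differences. Hexa, a subunit of beta-hexosaminidase, had a log2 change of 0.14 ± 0.13, Gaa, acid alpha-glucosidase, 0.03 ± 0.12, and Lipa, which splits cholesterol esters and triglycerides, 0.23 ± 0.15. Glb1, lysosomal beta-galactosidase, was 70.3, 92.5 and 83.5 in the controls and 82.3, 104.9 and 91.9 in the knockouts. Each Glb1 knockout was above its own control, by 0.19, 0.16 and 0.12, with overlapping groups (0.15 ± 0.12). Their limma adjusted p lay between 0.541 and 0.936, and Hexa, Gaa and Glb1 were below 0 with intensities as deposited (-0.05, -0.16 and -0.04).

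How many members passed depended on the litters. Without litter C 10 members passed, against 1 with all litters, 0 without litter A and 0 without litter B (8 at an unadjusted p under 0.05 in both). Of all 45037 probe sets 4143 had such a p by limma without litter A and 3700 without litter B. The 10 were Sqstm1 and Wipi2, higher, and Map1lc3a, Map1lc3b, Atg3, Lamp2, Npc1, Ctsa, Ctsb and Ctsh, lower. Of all 45037 probe sets 2773 passed without litter C and 189 with all litters, so the number of calls went up over the whole array too. The share without litter C among genes as bright as the members was not computed.

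A further 157 list entries of autophagy and the lysosome were examined, of which 142 were measured and 15 were not matched. Of these genes 1 passed as lower, Atp6v0e, and none as higher (24 lower and 13 higher at an unadjusted p under 0.05), and their median log2 change was -0.04. Over all genes 0.401% passed as lower and 0.214% as higher. At an unadjusted p under 0.05 by limma, 9.45% of all genes were lower and 8.66% higher. Among the brighter genes these shares were 14.5% and 13.4%. The counts per list below stand beside these shares. Atp6v0e, a small membrane subunit of the proton pump that acidifies lysosomes, was 1588, 1478 and 1372 in the controls and 1056, 1015 and 930 in the knockouts. The groups did not overlap, and Atp6v0e fell from 1479 ± 108 to 1000.2 ± 64.2 (SD, n = 3), by 0.56 ± 0.072 on the log2 scale (limma adjusted p = 0.0452). The call ended on the deposited scale (0.388), with arrays aligned at their medians (0.127), without the litter block (0.0561), with a pseudocount of 64 (0.0617), with 1 value per gene (0.0674), without the intensity trend (0.139) and without litter A (0.331) or B (0.494). The other 15 pump subunits did not pass and the median of the 16 was -0.00080. The next 2 by unadjusted p were Atp6v1e1 (-0.28 ± 0.077) and Atp6v0d1 (-0.22 ± 0.089).

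**Figure D4:**
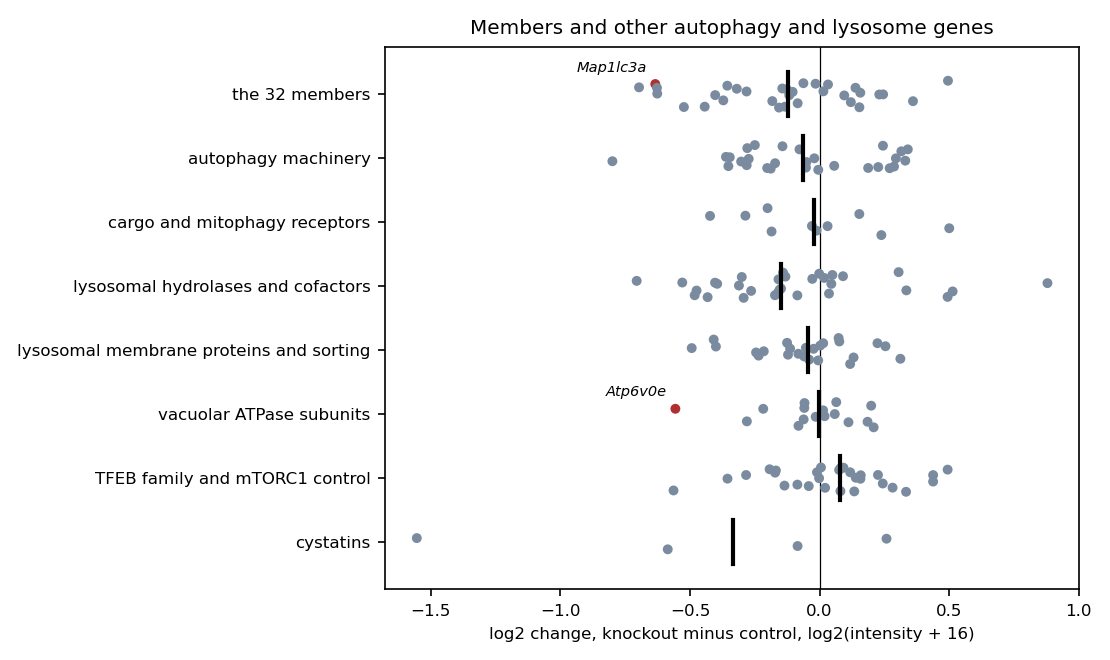
Log2 change (knockout minus control, on log2(intensity + 16)) of the 32 members and of 7 lists of other autophagy and lysosome genes, 1 point per gene with a black bar at each list's median. The red points, Map1lc3a among the members and Atp6v0e among the pump subunits, passed an adjusted p of 0.05, and the medians run from -0.34 in the cystatins to 0.08 in the TFEB and mTORC1 list.

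In the other 6 lists no gene passed by limma in the main fit. Of the autophagy machinery 1 gene passed as lower with aligned medians, with a pseudocount of 1 and without the 40% dimmest probe sets. Lower calls over all probe sets numbered 512, 330 and 609 there. Of the hydrolases 1 passed as lower in the latter 2 settings, and of the membrane and sorting genes 1 without the dimmest. Of 28 further genes of the autophagy machinery (median -0.07; 5 lower and 1 higher at an unadjusted p under 0.05), Rb1cc1, a scaffold of the ULK1 complex, was 243, 259.6 and 172 in controls and 125, 120.3 and 117 in knockouts, with no overlap (-0.80 ± 0.13, limma adjusted p = 0.0724). Vmp1 had 0.34 ± 0.12 and Pik3c3, the lipid kinase of the Becn1 complex, -0.27 ± 0.10. Of 10 other cargo and mitophagy receptors (median -0.02; 2 lower and 1 higher at an unadjusted p under 0.05), Bnip3, a mitophagy receptor that responds to low oxygen, had 0.50 ± 0.17, Pink1, a kinase of damaged mitochondria, -0.42 ± 0.15, and Tax1bp1 -0.29 ± 0.12. Of 31 other hydrolases and cofactors (median -0.15; 6 lower and 5 higher at an unadjusted p under 0.05), the dipeptidyl peptidase Ctsc was 720, 757 and 787.5 in controls and 457, 513 and 591 in knockouts (-0.53 ± 0.086, limma adjusted p = 0.0724).

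Ctss, a cathepsin best known from antigen-presenting cells, differed most upward among those hydrolases, with 58.2, 73.5 and 158 in controls and 72.2, 176 and 410.2 in knockouts (0.88 ± 0.21, limma adjusted p = 0.139), beside the macrophage and Langerhans marker sums given above. Of those 11 markers 7 had a log2 change above 0 and 4 below. Cd74 (0.58 ± 0.17) and the dim Cd207 (0.37 ± 0.11) were higher in every knockout array than in any control, and neither passed. Whether this bears on Ctss was not tested. Ctsf was at -0.71 ± 0.18. Of 24 other membrane and sorting genes (median -0.05; 4 lower and 2 higher at an unadjusted p under 0.05), Scarb2, the receptor that carries beta-glucocerebrosidase to the lysosome, was 604, 613 and 723 in controls and 393, 458 and 518 in knockouts (-0.49 ± 0.085, limma adjusted p = 0.0788). Vps41 had -0.25 ± 0.087 and Gga1 -0.41 ± 0.15. Of 29 genes of the TFEB family and mTORC1 control (median 0.08; 2 lower and 4 higher at an unadjusted p under 0.05), Lamtor5, a subunit of the Ragulator complex, had 0.28 ± 0.075, the stress-induced mTORC1 inhibitor Sesn2 0.49 ± 0.14 and Foxo3 0.44 ± 0.13.

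Cystatins, the inhibitors of cysteine cathepsins, were measured beside the proteases. Cst3, cystatin C, was 1110, 1105 and 1068 in the controls and 724, 782 and 669 in the knockouts. The groups stood well apart, and the log2 change of -0.59 ± 0.079 did not pass (limma adjusted p = 0.0505). Cst3 passed without the litter block (0.0431), with a pseudocount of 1 (0.0289), without the 40% dimmest probe sets (0.0157) and without litter C (0.011). It did not on the deposited scale (0.371), with aligned medians (0.115), with a pseudocount of 64 (0.0659) or with 1 value per gene (0.069). Nor did it pass without the intensity trend (0.138), litter A (0.337) or litter B (0.447). Cst6, cystatin M/E, which inhibits cathepsin L in the epidermis, was 276, 391 and 2094 in the controls and 155, 221 and 229 in the knockouts. As for Ctsl, the control of litter C was far above the other controls, and the log2 change was -1.55 ± 0.44 with all litters (limma adjusted p = 0.19) and -0.78 without litter C (0.00615). With all litters Cst6 passed when arrays were aligned at their medians (-1.66, limma adjusted p = 0.0264) and in no other setting. Cst7 was under 16 on every array, and of the 4 cystatins 2 were lower and none higher at an unadjusted p under 0.05.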

How the data were processed

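Per the labels' protocols, RNA was extracted with Trizol and labelled with biotin by in vitro transcription. The authors deposited 1 linear intensity per probe set and array; background correction, summary and scaling are not given in the sources used here. Trimmed means (2% off each end) differed up to 1.57-fold between arrays, so intensities were quantile-normalized. After 64 control probe sets were left out, log2(intensity + 16) was tested for 45037 probe sets in limma 3.58.1 (R 4.3.3; lmFit, eBayes with an intensity trend), two-sided, with Benjamini-Hochberg adjustment at 0.05. All p-values for genes are from this fit. The labels name each pool's litter, which pairs the arrays, so litter entered as a block; deviations of paired arrays from their group means had r of 0.17 (A), 0.047 (B) and 0.21 (C). Errors of log2 changes are SE, and precision is limited by there being 6 arrays. Where nothing says that the pools came from separate cultures, p-values measure only the spread between these samples.

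Symbols came from the platform annotation: 34945 probe sets had 1 gene, 932 several and 9160 were not listed. Named are all members, Gpx4, up to 3 genes of each other pathway list with the smallest unadjusted p, and marker and sex-linked genes; the latter were added after values were seen. The members and lists were chosen with earlier results of these data known. The steps were tested on simulated data.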

Additional observations from a re-analysis of the deposited data

How the results depend on the processing

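The deposited values carry no detection calls, so no member is called present or absent, and 3 litters limit the precision. Results that leave out a litter use the values normalized over all 6 arrays. Members lower numbered 0 to 8 and members higher 0 to 2 with a litter left out, and over all probe sets 0 to 1354 were higher and 0 to 1419 lower (without litter B limma gave 0, with 3700 at an unadjusted p under 0.05).

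Members lower were 4 without the 40% dimmest probe sets and 2 with a pseudocount of 1. They were 0 as deposited, with arrays aligned at their medians, with a pseudocount of 64, with probe sets averaged per gene and without the intensity trend (8, 9, 9, 9 and 9 members at an unadjusted p under 0.05 in either direction). Of all 45037 probe sets 4411, 5312, 6544 and 6655 had such a p by limma as deposited, with aligned medians, with a pseudocount of 64 and without the trend. With probe sets averaged per gene, which leaves fewer entries, 4025 had. With a litter left out the members' median lay between -0.177 and -0.0498. It was -0.307 as deposited and -0.248 with aligned medians. The median of the 8398 brighter genes moved down in these settings too, to -0.191 and -0.131, from -0.00603 in the main fit. Higher and lower probe sets numbered 521 and 609 without the dimmest, 3 and 32 as deposited, 198 and 512 with aligned medians, 271 and 330 with a pseudocount of 1, 27 and 32 with 64, and 0 and 6 without the trend (limma; 6655 at an unadjusted p under 0.05). Without the litter block 75 were lower, and pairing changed no call of a member.

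Log2 changes near 0 turned sign, none of them passing. As deposited Becn1 was -0.075, Atg7 -0.076, Atg16l1 -0.045, Lamp1 -0.15, Hexa -0.049, Gaa -0.16 and Glb1 -0.040. With aligned medians Becn1 was -0.016, Atg7 -0.017, Lamp1 -0.093 and Gaa -0.10. With averaged probe sets Atg7 was -0.012 and Gaa -0.041, and with a pseudocount of 64 Tfeb was 4.8e-05. With a litter left out Atg7 lay between -0.013 and 0.19, Ctsz between -0.35 and 0.017, Gaa between -0.015 and 0.12, Tfeb between -0.30 and 0.26, Lamp1 between -0.088 and 0.080, and Hexa between -0.0052 and 0.21. The cause was not tested.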
